A study of Mus musculus with 6 samples.

Results

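Insulin and insulin-like growth factor 1 (IGF1) act through a short chain of proteins, and 10 genes of that chain were followed in subcutaneous white adipose tissue (scWAT) of mice: the ligand gene Igf1, the receptor genes Insr and Igf1r, the receptor inhibitor gene Grb14, the substrate genes Irs1 and Irs2, the phosphoinositide 3-kinase (PI3K) subunit gene Pik3r1, the kinase genes Akt1 and Akt2, and the transcription factor gene Foxo1. They were chosen by symbol for their place in the pathway, with earlier results of these data known. Each of the 10 was found once among the 55401 genes counted. Bulk RNA was sequenced from scWAT of 8-week-old male mice kept at room temperature, 3 per genotype. The control mice, which the labels name WT and the study's methods name YT-FF, had Yap and Taz floxed but lacked Cre. The YT-AKO mice were Yap fl/fl and Taz fl/fl and also carried AdipoqCre, a Cre recombinase under control of the Adipoq promoter, an adipocyte promoter, so the other cells of the depot were not targeted. The tissue was taken whole, so a lower level can come from fewer cells of a type or from less RNA per cell, and these cannot be told apart. No label ties the libraries to litters or days, so p-values measure the spread between these 3 animals per group.

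Insulin and IGF1 bind receptor tyrosine kinases that phosphorylate the insulin receptor substrates. Class I PI3K docks on these substrates through its regulatory subunit and makes a membrane lipid that recruits and activates AKT, and AKT in turn keeps FoxO transcription factors out of the nucleus and drives glucose uptake and lipid storage. In adipocytes insulin is the main signal for glucose uptake and for the restraint of lipolysis, and white fat is also a source of locally made IGF1.

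The libraries held 17740987 to 21838493 counted fragments. All libraries carried adipocyte markers at high levels, with a summed level of 14058 to 19231 TPM (a level scaled for exon length and library) over 8 adipocyte genes in YT-FF and of 16069 to 18416 TPM in the libraries labelled YT-AKO. Of these 8 genes, edgeR called 2 higher in the libraries labelled YT-AKO (Fabp4 and Lipe) and none lower. Their median log2 fold change was 0.42. Yap1, a targeted gene, was lower in the libraries labelled YT-AKO by edgeR with Benjamini-Hochberg adjustment (log2 fold change -0.98 ± 0.167 SE, adjusted p = 0.0179). Wwtr1, which encodes TAZ and was the other target, was higher and so went against the label (0.89 ± 0.182 SE, adjusted p = 0.0220). Counts over all exons of Wwtr1 do not resolve the floxed part, and every direction below follows the labels. At the protein level, the study reported by immunoblot that YAP and TAZ were clearly reduced in YT-AKO scWAT. The library labelled YT-AKO 2 stood apart with the lowest normalization factor (0.777, against 0.954 and 0.955 in the other libraries labelled YT-AKO and 1.07 to 1.16 in YT-FF), and results that turn on it are given with and without it.

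All 10 genes passed the filter on low counts and were tested within the fit to 16807 genes. Pik3r1, Irs2 and Igf1r were lower in the libraries labelled YT-AKO at an adjusted p under 0.05, that is 3 of 10, and none was higher, where 9.01% of all tested genes were called lower and 12.6% higher. At the study's stricter threshold (adjusted p below 0.01 together with an absolute log2 fold change above 1), none of the 10 was called by edgeR in either direction, beside 0.0357% of all tested genes lower and 0.0892% higher. DESeq2 called 5 of 10 lower (Insr, Igf1r, Irs1, Irs2 and Pik3r1) and none higher, where it called 12.6% of all genes lower and 16.2% higher. At an unadjusted p under 0.05 edgeR passed 5 of the 10, all lower, where 40.8% of all tested genes passed in either direction. With 1 library left out the calls depended on the library for all genes: edgeR called 0 of 17183 genes without YT-FF 1 and 2 of 17140 without YT-FF 2, so a call lost there says nothing particular to a gene. CPM (the count of a gene scaled to library size with TMM factors) of Insr, Igf1r, Irs1, Irs2 and Pik3r1 were lower in every library labelled YT-AKO than in every YT-FF library, a pattern that 25.8% of all tested genes showed. Akt2 was the single gene with all libraries labelled YT-AKO above all YT-FF libraries, a pattern of 25.7% of all tested genes. The median log2 fold change of the 10 was -0.48, beside -0.02 over all tested genes.

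**Figure D1:**
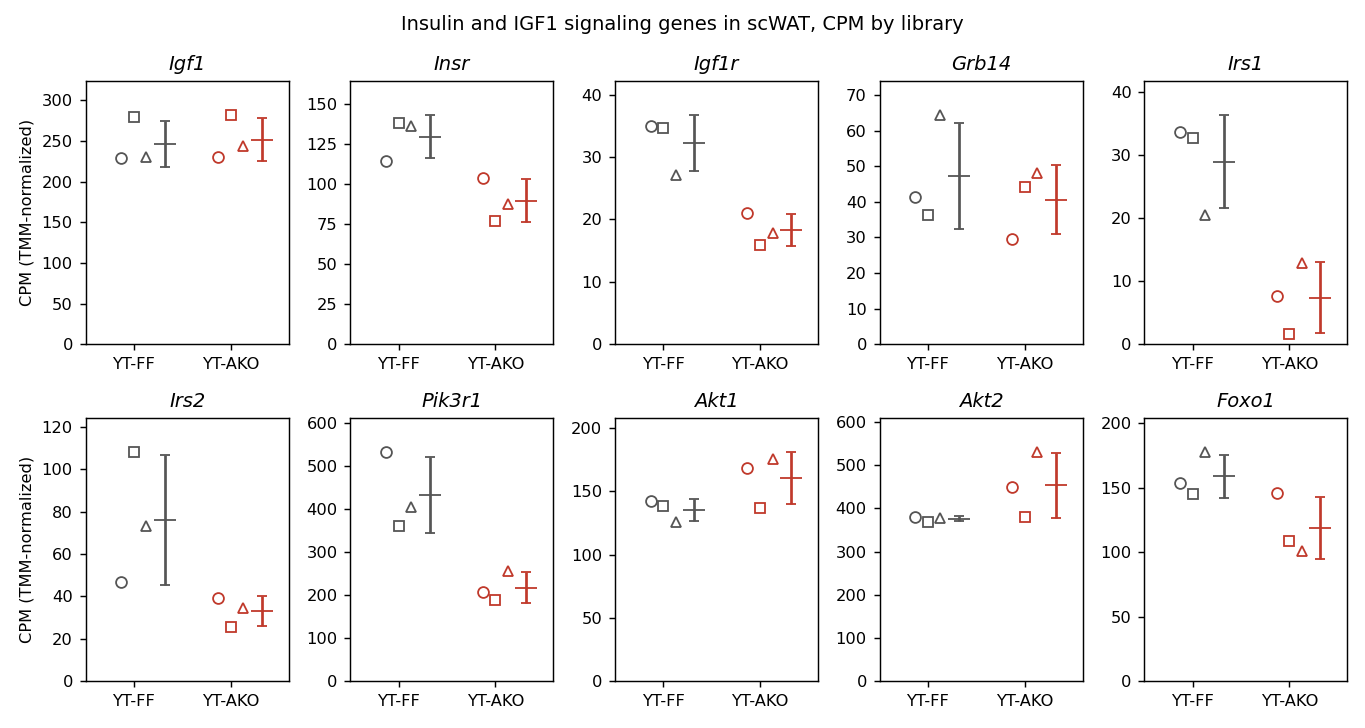
CPM (TMM-normalized, linear axis from 0) of the 10 genes in each library, with circles, squares and triangles for replicates 1, 2 and 3, a horizontal line for the mean and bars for the SD (n = 3). Igf1 has nearly the same range in both groups, and Irs1 falls from 20.4 to 33.6 CPM in YT-FF to 1.65 to 12.8 CPM in the libraries labelled YT-AKO.

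Igf1, the ligand gene (chr10:87858265-87937042 in mm10), had nearly the same CPM in both genotypes. Its CPM were 229, 279 and 230 in YT-FF 1, 2 and 3 and 230, 281 and 243 in the libraries labelled YT-AKO 1, 2 and 3. The groups overlapped over nearly their whole range, and library 2 was the highest of each group. The fitted log2 difference was 0.03 ± 0.170 (SE), with a 95% interval of -0.36 to 0.43 (edgeR, adjusted p = 0.902), so a change by more than about 1.34-fold upward or 1.29-fold downward lies outside the interval. That interval holds for TMM scaling. After the correction for gene length described below, the log2 difference was 0.49 (edgeR, adjusted p = 0.131). In TPM, Igf1 ran from 83.8 to 111 in YT-FF and from 49.8 to 66.8 in the libraries labelled YT-AKO.

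Both receptor genes had lower CPM in the libraries labelled YT-AKO, and Igf1r passed the test. Igf1r (chr7:67952827-68233668), which encodes the IGF1 receptor, had 34.9, 34.7 and 27.1 CPM in YT-FF and 21.1, 15.9 and 17.9 CPM in the libraries labelled YT-AKO. The lowest YT-FF library was above the highest library labelled YT-AKO, and the log2 fold change was -0.82 ± 0.185 (SE; 95% interval -1.25 to -0.39; edgeR, adjusted p = 0.0264). Without the library labelled YT-AKO 3, Igf1r was at -0.79 and was not called (edgeR, adjusted p = 0.0554), and without YT-FF 1 or YT-FF 2 its log2 fold change was -0.76 and -0.77. Insr (chr8:3122061-3279617), the insulin receptor gene, had 114, 138 and 136 CPM in YT-FF and 104, 77.0 and 87.6 CPM in the libraries labelled YT-AKO. These ranges did not overlap either, yet the log2 fold change of -0.53 ± 0.173 (SE; 95% interval -0.93 to -0.13) missed the threshold (edgeR, adjusted p = 0.0601), while DESeq2 placed it below (adjusted p = 0.0391). Leaving out the library labelled YT-AKO 1 or 2 brought Insr to an adjusted p of 0.0492 and 0.0478 by edgeR.

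Grb14 (chr2:64912476-65024987) encodes an adaptor that binds the active insulin receptor and inhibits its kinase. It had 41.4, 36.3 and 64.3 CPM in YT-FF and 29.5, 44.3 and 48.0 CPM in the libraries labelled YT-AKO. The groups overlapped, YT-FF 3 was the highest of all libraries, and the log2 difference of -0.22 ± 0.271 (SE) did not pass (95% interval -0.85 to 0.41; edgeR, adjusted p = 0.563).

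The insulin receptor substrate genes had the largest differences of the 10. Irs1 (chr1:82233101-82291416) had 33.6, 32.7 and 20.4 CPM in YT-FF and 7.62, 1.65 and 12.8 CPM in the libraries labelled YT-AKO, from raw counts of 788, 743 and 396 against 131, 28 and 217. Every YT-FF library was above every library labelled YT-AKO, and the library labelled YT-AKO 2 was far below the other libraries of its group. The fitted log2 fold change was -1.97 ± 0.602 (SE), a 3.92-fold lower level with a 95% interval on the log2 scale of -3.37 to -0.58, and it missed the threshold (edgeR, adjusted p = 0.0520). Without the library labelled YT-AKO 2 the log2 fold change was -1.50 and edgeR called Irs1 lower (adjusted p = 0.00774), as it did without the library labelled YT-AKO 3 (-2.64, adjusted p = 0.0402). DESeq2 called Irs1 with all 6 libraries (adjusted p = 0.00177). Of the exon bases of Irs1, 30.9% overlap the gene model Gm9747, which had no counts in any library, and fragments that fell on both were not counted.

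Irs2 (chr8:10984681-11008458), the second widely used substrate gene, had 46.8, 108 and 73.0 CPM in YT-FF and 39.4, 25.5 and 34.3 CPM in the libraries labelled YT-AKO. The groups did not overlap, but YT-FF 1 and the library labelled YT-AKO 1 lay close together, and YT-FF was the more spread group (76.0 ± 30.8 against 33.1 ± 7.03 CPM, SD, n = 3). The log2 fold change was -1.20 ± 0.313 (SE; 95% interval -1.93 to -0.48; edgeR, adjusted p = 0.0358). The log2 fold change of Irs2 was -1.46, -0.86 and -1.23 without YT-FF 1, 2 and 3. Irs2 was not called without YT-FF 3 (edgeR, adjusted p = 0.0830, where 3.02% of all genes were called lower) or without the library labelled YT-AKO 3 (-1.22, 0.0666, 5.12%).

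The RefSeq promoters of both substrate genes (GRCm38.p6, 250 bases before to 50 after the start, written 5′ to 3′ on the gene's minus strand) are shown because these genes had the largest differences and because, of the 14 promoters listed for 9 of the 10 genes (none is listed for Insr), only theirs hold the insulin response element core CAAAACAA, here on the opposite strand. Capitals mark that core and, in Irs1, the GGAATG core of the TEAD factors, the DNA-binding partners of YAP and TAZ. The Irs1 window is chr1:82291390-82291689 and the Irs2 window chr8:11008880-11009179. Neither of these RefSeq starts was found in a GENCODE transcript. The Irs2 window lies wholly upstream of the counted gene model, whose upstream edge is at chr8:11008458.

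Irs1: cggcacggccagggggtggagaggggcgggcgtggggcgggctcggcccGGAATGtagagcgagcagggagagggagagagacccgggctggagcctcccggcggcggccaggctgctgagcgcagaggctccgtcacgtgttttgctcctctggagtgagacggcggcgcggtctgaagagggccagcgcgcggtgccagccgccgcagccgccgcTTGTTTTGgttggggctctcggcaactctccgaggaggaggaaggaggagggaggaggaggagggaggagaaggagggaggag

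Irs2: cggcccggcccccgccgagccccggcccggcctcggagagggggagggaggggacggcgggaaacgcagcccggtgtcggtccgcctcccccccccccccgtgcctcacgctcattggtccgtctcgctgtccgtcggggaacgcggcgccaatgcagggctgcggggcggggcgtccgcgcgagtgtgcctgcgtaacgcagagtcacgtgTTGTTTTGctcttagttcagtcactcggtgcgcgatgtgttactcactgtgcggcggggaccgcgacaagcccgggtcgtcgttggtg

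The insulin response element core began 33 bases before the start of Irs1 and 38 bases before that of Irs2, and the TEAD core began 201 bases before the start of Irs1. Searched on both strands of 32851 RefSeq promoters, CAAAACAA was in 2.51%, GGAATG in 14.7% and the FoxO core GTAAACA in 3.65%, and no match of 1 motif overlapped another in these windows. Of the 14 promoters of these genes, 2 held CAAAACAA, 4 held GGAATG (Irs1, 1 start of Pik3r1 and 2 of the starts of Akt2) and 1, of Akt1, held GTAAACA. A match describes the letters in the window and not a bound site.

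Pik3r1 (chr13:101680563-101768217) encodes the p85 regulatory subunit through which class I PI3K docks on the substrates. It had 532, 361 and 406 CPM in YT-FF and 207, 187 and 257 CPM in the libraries labelled YT-AKO. The groups were well apart, and YT-FF 1 was the highest library. Its mean fell from 433 ± 88.9 to 217 ± 35.8 CPM (SD, n = 3), a log2 fold change of -0.996 ± 0.216 (SE; 95% interval -1.50 to -0.50; edgeR, adjusted p = 0.0244). The log2 fold change was -0.82, -1.12 and -1.04 without YT-FF 1, 2 and 3. Pik3r1 was not called without YT-FF 3 (edgeR, adjusted p = 0.0560) and was called without each library labelled YT-AKO (0.0110 to 0.0454). RefSeq lists starts of Pik3r1 that lie far apart, and the promoter at the inner start, which belongs to shorter transcripts, is shown because it is the one with a TEAD core (in capitals, 17 bases before the start; chr13:101692581-101692880, minus strand, GRCm38.p6). The counts cover all exons of the gene and do not say which start was used.

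Pik3r1, inner start: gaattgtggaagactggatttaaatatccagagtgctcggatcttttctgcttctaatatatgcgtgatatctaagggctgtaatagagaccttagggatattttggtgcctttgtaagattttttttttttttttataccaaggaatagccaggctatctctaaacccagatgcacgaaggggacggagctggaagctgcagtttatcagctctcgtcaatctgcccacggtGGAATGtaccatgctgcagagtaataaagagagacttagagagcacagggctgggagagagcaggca

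The AKT kinase genes did not pass the test in either direction. Akt1 (chr12:112653821-112674884), the isoform most tied to growth, had 143, 138 and 126 CPM in YT-FF and 169, 137 and 176 CPM in the libraries labelled YT-AKO. Akt2 (chr7:27591552-27640826), the isoform most tied to glucose uptake, had 380, 369 and 378 CPM in YT-FF and 449, 381 and 531 CPM in the libraries labelled YT-AKO. Akt1 overlapped through the library labelled YT-AKO 2, and for Akt2 that library (380.6 CPM) was barely above YT-FF 1 (379.8 CPM). The log2 differences were 0.24 ± 0.162 (SE; 95% interval -0.13 to 0.62; edgeR, adjusted p = 0.289) for Akt1 and 0.27 ± 0.182 (-0.15 to 0.69; adjusted p = 0.291) for Akt2. Without the library labelled YT-AKO 2, the adjusted p was 0.0591 for Akt1 and 0.0505 for Akt2 by edgeR, and DESeq2 called both higher (log2 fold change 0.35 and 0.39, adjusted p = 0.0280 and 0.0143). In that DESeq2 fit 17.9% of all genes were called higher, and the library was left out after the data were seen. Scaling by library totals alone, which moved the median of all genes to -0.34, gave -0.07 for Akt1 and -0.04 for Akt2, each above that median.

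Foxo1 (chr3:52268336-52353221), the FoxO factor that AKT holds in check, had 154, 145.5 and 178 CPM in YT-FF and 146, 109 and 101 CPM in the libraries labelled YT-AKO. The groups met at YT-FF 2 and the library labelled YT-AKO 1, and the log2 difference of -0.43 ± 0.191 (SE) did not pass (95% interval -0.87 to 0.02; edgeR, adjusted p = 0.133). Of its exon bases, 7.78% overlap Gm20402, which had no counts.

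**Figure D2:**
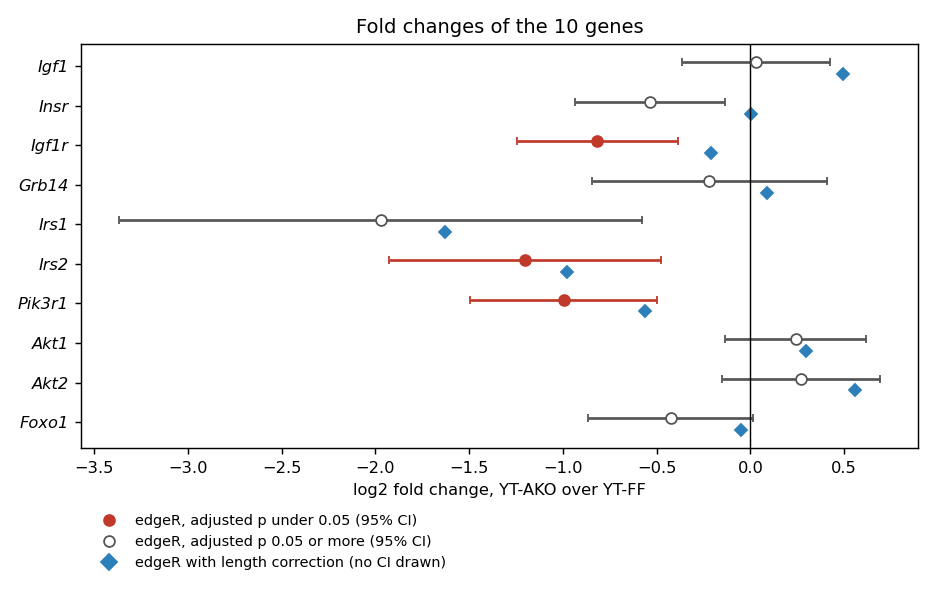
Log2 fold change of the 10 genes (libraries labelled YT-AKO over YT-FF, edgeR) as circles with 95% intervals, filled at an adjusted p under 0.05, and after a correction for gene length as diamonds without intervals. Pik3r1, Irs2 and Igf1r are filled, and the diamonds of Insr (0.00) and Foxo1 (-0.05) lie near 0.

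The difference between genotypes also followed gene length across the whole transcriptome. Over the 16807 tested genes, Spearman's rho of log2 fold change with summed exon length was -0.376, given as a description since genes are not independent replicates. All 10 pathway genes are longer than the median tested gene (3888 bp), from Akt1 (4098 bp) to Igf1r (16791 bp). Among 2549 genes with over 8 kb of exons, the median log2 fold change was -0.47, 26.2% were called lower and 2.12% higher. This class holds Igf1, Insr, Igf1r, Irs1, Pik3r1 and Foxo1, of which 2 were called lower and 4 lay below the class median. In the class of 4 to 8 kb (median -0.17, 9.72% called lower), Irs2 was the gene called of the 4 members, beside Grb14, Akt1 and Akt2. A log2 fold change of 0 in a gene over 8 kb, as in Igf1, was therefore above most genes of its length.

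**Figure D3:**
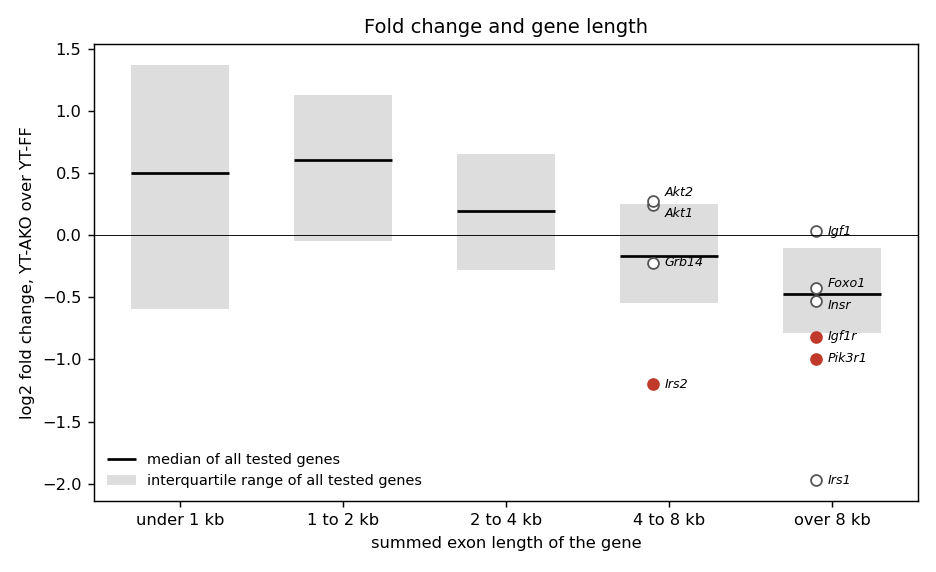
Log2 fold change by summed exon length of the gene, with the median (line) and interquartile range (box) of all tested genes in each length class and the 10 genes as points, filled where called at an adjusted p under 0.05. The class median goes from 0.50 under 1 kb to -0.47 over 8 kb, and Irs1, Pik3r1 and Igf1r lie under the box of their class while Igf1 lies above it.

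With a length trend removed in each library (a spline in log length), edgeR called none of the 10 in either direction, where 4.54% of all tested genes were called lower and 10.1% higher. Irs1 and Irs2 kept most of their difference (log2 fold change -1.63, adjusted p = 0.0740, and -0.98, adjusted p = 0.0572, by edgeR with Benjamini-Hochberg adjustment), and Pik3r1 kept part of it (-0.56, adjusted p = 0.0878). Igf1r moved to -0.21 (adjusted p = 0.325), Foxo1 to -0.05 (0.862) and Insr to 0.00 (0.991), all by the same edgeR fit. Akt2 moved to 0.56 (0.0512) and Igf1 to 0.49 (0.131), while Akt1 (0.30, 0.173) and Grb14 (0.09, 0.857) did not pass. The same fit without the library labelled YT-AKO 2 called Irs1 lower (-1.19, edgeR adjusted p = 0.0186) and Akt2 higher (0.59, 0.0169). It called 8.47% of all genes lower and 15% higher. What made the counts follow gene length was not tested.

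Levels per length placed the 10 genes in much the same order in both genotypes. In YT-FF the mean TPM was 200.1 for Akt2, 163 for Pik3r1, 126 for Akt1, 94.7 for Igf1, 69.5 for Foxo1, 45.9 for Irs2, 35.8 for Insr, 24.8 for Grb14, 12.1 for Irs1 and 7.33 for Igf1r. Among neighbours in this order, the ranges over libraries were separate for Pik3r1 and Akt1, Igf1 and Foxo1, and Grb14 and Irs1, and the other neighbours overlapped. In the libraries labelled YT-AKO the order was Akt2 (157 TPM), Akt1 (96.6), Igf1 (60.5), Pik3r1 (53.0), Foxo1 (33.5), Insr (16.1), Grb14 (13.5), Irs2 (13.1), Igf1r (2.69) and Irs1 (2.15). There the neighbours with separate ranges were Foxo1 and Insr, and Irs2 and Igf1r. Pik3r1 went from rank 2 to rank 4, Irs2 from 6 to 8 and Irs1 from 9 to 10. TPM of these long genes is lower in the libraries labelled YT-AKO also where CPM is not, as for Igf1.

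Ratios between genes of like role within a library were compared by exact permutation tests (two-sided, whose smallest p with 3 against 3 libraries is 0.1), adjusted over 6 ratios. The TPM ratio of Pik3r1 to Pik3r2, the genes of the p85 alpha and p85 beta subunits, was 3.43, 2.40 and 3.05 in YT-FF and 1.40, 1.23 and 1.19 in the libraries labelled YT-AKO. The groups did not overlap (log2 difference -1.21, exact permutation p = 0.1, adjusted 0.6), and with the length correction the difference was -0.83. Pik3r2 itself had a log2 difference of 0.24 ± 0.190 (SE; edgeR, adjusted p = 0.375). The ratio of Irs1 to Irs2 ran from 0.193 to 0.496 in YT-FF and from 0.0448 to 0.258 in the libraries labelled YT-AKO, with overlap (log2 difference -1.23, exact permutation p = 0.3). That difference was -0.55 without the library labelled YT-AKO 2 and -0.79 without YT-FF 1. Akt2 to Akt1 (1.53 to 1.73 in both groups), Foxo1 to Foxo3, Insr to Igf1r and Grb14 to Grb10 had log2 differences of 0.02, -0.03, 0.28 and -0.07, with exact permutation p of 0.7, 0.8, 0.4 and 0.8.

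**Figure D4:**
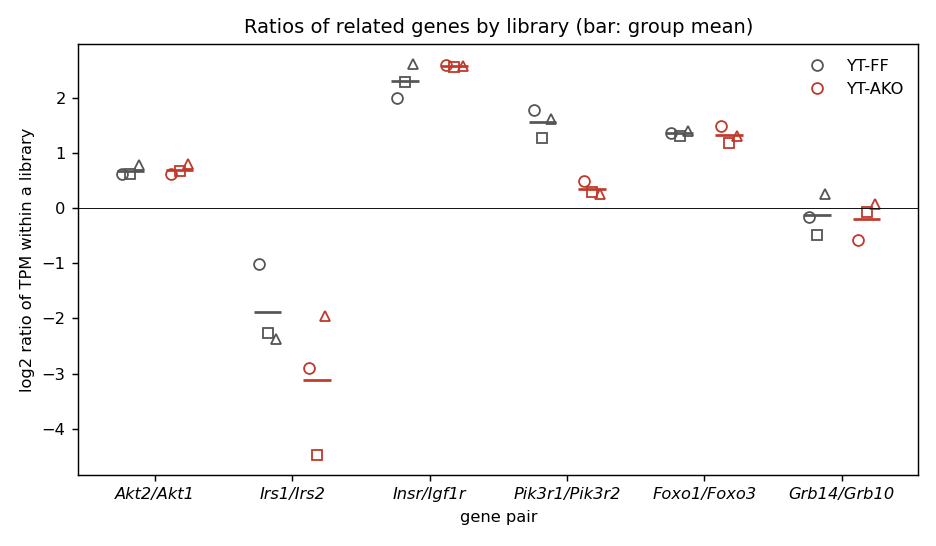
Log2 of the within-library TPM ratio of 6 gene pairs, with circles, squares and triangles for replicates 1, 2 and 3 of each group and a bar for the group mean. The Pik3r1 to Pik3r2 ratio is the pair without overlap, with group means of 1.55 and 0.34 on the log2 scale.

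The rest of the pathway was followed through 143 further genes, of which 135 were tested. Of these, 18 were called lower (13.3%) and 14 higher (10.4%), with a median log2 fold change of -0.18, against 9.01% lower and 12.6% higher over all tested genes. The log2 fold changes and adjusted p-values that follow are from edgeR, with Benjamini-Hochberg adjustment across the whole fit.

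Among ligands and IGF-binding proteins, 3 of 10 tested genes rose and 1 fell. Igfbp6 (log2 fold change 1.39, adjusted p = 0.0171), Igfbp7 (0.86, 0.0207) and Igfbp4 (0.73, 0.0316) encode proteins that bind IGFs or IGF-like ligands outside the cell, and Igfbp7 had the highest level per length of the 3 (1390.5 ± 51.6 TPM in YT-FF and 1587 ± 282 TPM in the libraries labelled YT-AKO, SD, n = 3). Stc1, which encodes an inhibitor of the protease that cleaves some IGF-binding proteins, fell (-1.25, adjusted p = 0.0295). With the length correction Igfbp7 was at 0.44 (adjusted p = 0.0866) and the other 3 stayed called.

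Receptors and their partners included 3 falls and no rise among 11 tested genes. Ptprf, a receptor phosphatase gene (log2 fold change -1.25, adjusted p = 0.0190), Sorl1, a sorting receptor gene (-1.13, 0.0201), and Igf2r, the gene of the receptor that clears IGF2 (-0.80, 0.0404), were lower, and Ptprf and Sorl1 stayed called with the length correction. Among 14 other substrates and adaptors, Irs3 rose and Cbl fell. Irs3, a rodent adipocyte substrate gene, had 35.9, 29.8 and 29.7 CPM in YT-FF and 60.6, 70.8 and 102 CPM in the libraries labelled YT-AKO. It was thus higher in every library labelled YT-AKO (log2 fold change 1.29 ± 0.220 SE, edgeR, adjusted p = 0.0180; with length correction 1.05, 0.0297), where Irs1 and Irs2 were lower. Cbl, an adaptor and ubiquitin ligase gene, was at -1.16 (adjusted p = 0.0226). Of 9 further receptor-proximal inhibitor genes, Trib3 rose (1.14, adjusted p = 0.0235) and Trib2 fell (-0.69, 0.0348; with length correction -0.60, 0.0685). Both encode pseudokinases that bind AKT or its regulators.

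PI3K subunits and lipid phosphatases other than Pik3r1 had the lowest median of the 10 lists of further genes (-0.48). Among 17 tested genes, 4 fell and none rose. In 11 of the 17, every library labelled YT-AKO was below every YT-FF library, a pattern that 25.8% of all tested genes showed. Of the 17 genes, 9 have over 8 kb of exons, and with the length correction the median was -0.14 and 3 stayed called lower. Pik3c2b, a class II PI3K gene (log2 fold change -1.81, adjusted p = 0.0178), and Inpp4b, a lipid phosphatase gene (-1.36, 0.0166), had the largest falls among the genes called, and Pik3c2a, another class II gene, was at -1.60 without passing (adjusted p = 0.0898). Pik3cg (-1.18, 0.0167) and Inpp5d (-0.77, 0.0260), which are known best from blood cells, fell beside B cell markers, of which 3 of 7 fell and none rose (summed level 1524 to 1881 TPM in YT-FF and 765 to 825 TPM in the libraries labelled YT-AKO), and the part of those cells was not tested.

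Of 24 tested genes of AKT, mTOR and their effectors, 2 rose and 5 fell. Eif4ebp1, a translation repressor that mTOR inactivates (log2 fold change 1.19, adjusted p = 0.0288), and Akt1s1, an AKT substrate in the mTOR complex (0.998, 0.0177), rose, and Deptor, an mTOR inhibitor gene, fell (-1.08, 0.0215). Slc2a4, the gene of the insulin-responsive glucose transporter, did not pass (0.34 ± 0.242 SE, adjusted p = 0.315). Rictor, Tsc1 and Tbc1d1 were also called lower, and none of these 3 stayed called with the length correction.

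Among FoxO factors and their regulators, 1 of 6 tested genes rose, Fcor, which encodes a FoxO1 corepressor in fat (log2 fold change 1.43, adjusted p = 0.0268), and none fell. Of 19 FoxO target genes, 4 rose and 2 fell. Cdkn1a, the gene of a cell cycle inhibitor, had the largest rise (2.15, adjusted p = 0.0226, from 21.3 ± 9.71 to 94.3 ± 47.9 CPM, SD, n = 3), followed by Sod2, the gene of the mitochondrial superoxide dismutase (1.12, 0.0177). Sesn3 (-0.99, 0.0185), a stress-induced regulator of mTOR, and Cdkn1b (-0.58, 0.0383), another cell cycle inhibitor, fell. With the length correction neither fall stayed called (Sesn3 -0.43, adjusted p = 0.0555, and Cdkn1b -0.48, 0.0589), while 3 of the 4 rises did. These genes are also controlled by factors other than FoxO.

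In the Ras-MAPK branch, the other arm below the receptors, 2 of 19 tested genes rose and 1 fell: Hras (log2 fold change 1.50, adjusted p = 0.0245) and Map2k2 (1.42, 0.0217) rose, and Braf fell (-0.94, 0.0301). With the length correction both rises stayed called and Braf did not (-0.42, adjusted p = 0.0966). The list median was -0.30, and -0.08 with the length correction. As in the PI3K list, many genes lay apart: in 10 of the 19 every library labelled YT-AKO was below every YT-FF library. In 3 of the 19 every such library was above. Over all tested genes these patterns had shares of 25.8% and 25.7%. In the growth hormone axis, which drives Igf1 transcription in many tissues, none of 6 tested genes passed. The smallest p-values there were those of Jak2 (-0.56, adjusted p = 0.0721) and Prlr (-1.44, 0.0729), and Ghr, the growth hormone receptor gene, was at -0.28 (0.283).

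**Figure D5:**
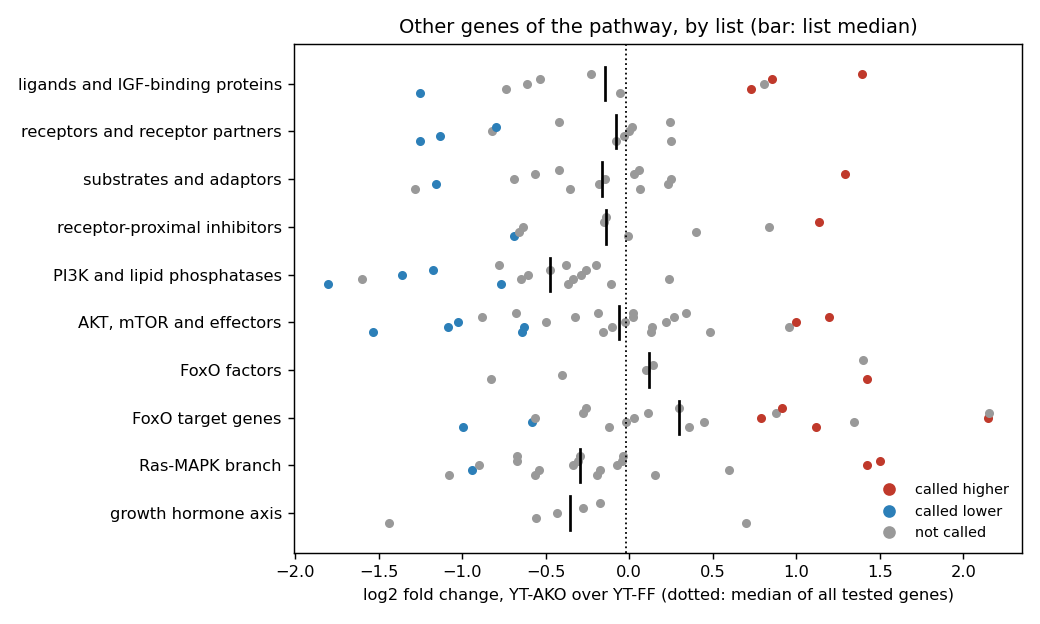
Log2 fold change (libraries labelled YT-AKO over YT-FF, edgeR) of each tested pathway gene outside the 10, by list, with red points for called rises, blue points for called falls, grey points for the rest and a bar for the list median. Cdkn1a at 2.15 is the highest called point, and the PI3K and phosphatase list has its 4 called points all below 0.

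Markers of some other cell types and states also differed between the groups. Of 7 thermogenic adipocyte markers, 6 rose and none fell, with a summed level of 754 to 1034 TPM in YT-FF and 5951 to 10766 TPM in the libraries labelled YT-AKO. Schwann cell markers had a summed level of 617 to 749 TPM in YT-FF and 299 to 395 TPM in the libraries labelled YT-AKO. By edgeR, which scales with TMM factors, none of the 6 was called and their median log2 fold change was -0.29. Skeletal muscle markers ran from 291 to 838 TPM in YT-FF and from 435 to 4603 TPM in the libraries labelled YT-AKO, with library 1 the highest and 1 of 8 genes called higher. Macrophage markers (2 of 9 higher), progenitor and fibroblast markers (2 of 9 higher), endothelial markers (1 of 7 lower) and T cell markers (1 of 7 lower) held 1 or 2 calls each. Krt5, a defining epithelial marker, was at 0 counts in every library, and the epithelial list summed to 2.74 to 6.62 TPM over the 6 libraries. The part of these cells and states in the levels of the 10 genes was not tested.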

How the data were processed

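RNA-seq libraries of whole scWAT were used, 3 per genotype. The deposited values are raw counts per gene: the authors aligned with HISAT2 to mm10 and counted paired-end fragments on GENCODE vM25 exons with featureCounts 2.0.1, unstranded, leaving out fragments on several genes, so overlapping or near-identical genes lost counts. Symbols were matched for 55141 of 55401 genes. In R 4.3.3, edgeR 4.0.16 (TMM, filterByExpr with a minimum count of 10 and a minimum total of 15, quasi-likelihood test, Benjamini-Hochberg adjustment over 16807 genes) gave the main results, where the study used DESeq2. The biological coefficient of variation was 0.288. TPM used summed exon lengths. Alternatives were DESeq2 1.42.0, limma-voom (3.58.1), other scalings and filters, a replicate block, robust estimation, a length spline with 6 degrees of freedom, and each library left out. On simulated counts of 16377 genes, edgeR recovered 71 of 100 genes changed by a log2 of 2 and 12 of 100 changed by 1, with 8 false calls. The simulation changed 200 genes and held no length trend, where in the data 12.6% of tested genes were called higher and 9.01% lower. It therefore does not give the sensitivity of the fit to the data. The 10 genes and the pathway and marker lists were chosen with earlier results of these data known. Named beside the 10 were the 2 largest called rises and falls per list, or the 2 smallest p-values where none was called, genes in ratios, the targeted genes and, for Igf1 and Irs1, the 3 genes with the most similar pattern. Some genes that these rules name are left out here. Other genes named in a list were chosen after their values were seen. RefSeq promoters are from GRCm38.p6. Total counts of 17740987 to 21838493 limit precision for low genes, and fragments carry no molecular identifiers.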

Additional observations from a re-analysis of the deposited data

How the results depend on the processing

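Of the 10 genes, 3 were called lower and none higher. The lower count was 5 with DESeq2, 6 with library totals alone (16.8% of all genes lower, median log2 fold change -0.34) and 5 with at least 10 counts in every library (12% of all genes), and 0 with the replicate block, with the length correction and with both. Leaving out 1 library gave 0 to 5 (0 without YT-FF 1 or YT-FF 2, where 0 and 2 of all genes were called, 1 without YT-FF 3, where 3.02% were called lower, and 5 without YT-AKO 2, where 14% were). With YT-AKO 2 left out, a choice made after seeing the data, the length correction gave 1 lower and 1 higher (8.47% and 15% of all genes), and DESeq2 gave 5 lower and 2 higher (14.8% and 17.9%). At the study's threshold the count lower was 0, but 3 with DESeq2 (3.79% of all genes), 2 without a filter (1.69%), 0 to 1 with 1 library left out and 2 with DESeq2 without YT-AKO 2. Of the 135 other pathway genes, 18 were called lower, but 31 with DESeq2, 34 with library totals alone, 9 with the length correction, 0 to 33 with 1 library left out and 34 with DESeq2 without YT-AKO 2. The higher count of 14 became 0 to 23 with 1 library left out, 25 with the length correction without YT-AKO 2 and 24 with DESeq2 without YT-AKO 2. The replicate block, alone and with the length correction, left 0 of the 135 in each direction, and it left 24 higher and 9 lower over all genes. Deviations from the group means of same-numbered libraries had correlations of 0.139, -0.134 and -0.0911. Those of differently numbered libraries ran from -0.158 to 0.175. These values cannot show or exclude a pairing, and no label gives one. The sign of the log2 fold change turned for Igf1 (-0.014 with upper quartile, -0.31 with library totals, -0.058 to 0.13 with 1 library left out, -0.048 with DESeq2 without YT-AKO 2), for Akt1 and Akt2 with library totals (-0.073 and -0.040), for Insr with the length correction (0.0033) and with the block as well (0.0097), and for Grb14 (0.086 with the length correction, 0.088 with the block as well, -0.38 to 0.067 with 1 library left out, the last without YT-FF 3). None of these values passed its test. The length correction moved the log2 ratio differences of Akt2 to Akt1 to 0.26 and of Pik3r1 to Pik3r2 to -0.83. The cause of these changes was not tested.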

Other observations

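Across the 6 libraries, log2 CPM of Insr and Irs2 had a Pearson r of 0.948, Akt1 and Akt2 0.909 and Igf1r and Irs1 0.885, and Akt2 and Foxo1 had the lowest r of the pairs among the 10 genes (-0.595). These are descriptions over 6 libraries that share genotype, depth and length trend. The genes with the pattern most like Igf1 were Sag (r = 0.965), Gspt2 (0.962) and Efcab11 (0.957), 3 of 6 genes above 0.95. Gm10851 and Npas1 were among those most like Irs1 (r = 0.999 each), and 1086 genes were above 0.95. Npas1 (0 to 0.98 CPM), Sag (1.29 to 1.95 CPM) and Efcab11 (0.47 to 1.65 CPM) had low levels, so their r rests on few counts.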
